A study of Homo sapiens with 6 samples.

Results

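The p21-activated kinase (PAK) genes PAK1, PAK2, PAK3, PAK4 and PAK6 were followed through RNA sequencing of the triple-negative human breast cancer line MDA-MB-231 after loss of the kinases MRCKα and MRCKβ. These 5 genes were taken by symbol from the 17064 genes of the deposited table. PAK6 was chosen because its level was low in the MRCKα KO library, so that value is a description and no test was applied to it. PAK5, listed in older annotations as PAK7, was not analysed here.

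The 6 libraries comprised 2 of cells transduced with the empty lentiCRISPRv2 vector, 1 MRCKα KO, 1 MRCKβ KO and 2 MRCKα/MRCKβ double KO (DKO). All cells carried the lentiviral CRISPR vector, and the knockouts were transduced pools without picking of clones. The 2 vector controls came from separate transductions and the 2 DKO libraries from different guide sets, while the guide used in each single library was not given in the sources used here. Each single knockout was therefore 1 library without a replicate.

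Between 10349898 and 10657857 expected counts were assigned to genes in each library, so depth was alike. RNA of the targeted genes remained in every library, while the paper reports from immunoblots that both proteins were lost very efficiently in the knockout cells. CDC42BPA, which encodes MRCKα, differed by -0.16 on the log2 scale between DKO and vector, and CDC42BPB, which encodes MRCKβ, by -0.37. In FPKM, CDC42BPA in MRCKα KO was 0.985 times the vector mean, and CDC42BPB in MRCKβ KO was 0.865 times. The labels call the cells epithelial. KRT8 and KRT18, keratins of simple epithelia, ranged from 138 to 220 and from 153 to 189 FPKM (fragments per kilobase of transcript, scaled to sequencing depth), while CDH1, which encodes E-cadherin, stayed between 0.25 and 0.64 FPKM and VIM, the mesenchymal filament vimentin, between 1532 and 2052 FPKM.

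PAKs are serine/threonine kinases that bind the active, GTP-loaded form of the small GTPases CDC42 and RAC, and they act on the actin cytoskeleton, adhesion and cell survival. PAK1, PAK2 and PAK3 form group I, which is held inactive by its own inhibitory segment until the GTPase binds, and PAK4, PAK5 and PAK6 form group II, in which activity is controlled differently. MRCKα and MRCKβ also bind CDC42, and PAK and MRCK signalling both reach LIM kinases and myosin light chain.

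The feature that PAKs and MRCKs share is the CDC42/RAC interactive binding (CRIB) motif. The coding sequence of this motif is shown because it sets the group I genes, the group II genes and the 2 targeted kinases side by side. Each stretch has 36 bases, written 5′ to 3′ on the coding strand from GRCh38 with GENCODE v29 gene models, and the capitals mark the codons of the 6 conserved residues of the motif.
PAK1, chr11:77379927-77379962, minus strand: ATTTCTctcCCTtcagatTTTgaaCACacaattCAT
PAK2, chr3:196801959-196801994, plus strand: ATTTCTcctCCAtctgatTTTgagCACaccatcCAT
PAK3, chrX:111142128-111142163, plus strand: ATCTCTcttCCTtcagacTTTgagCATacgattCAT
PAK4, chr19:39169584-39169619, plus strand: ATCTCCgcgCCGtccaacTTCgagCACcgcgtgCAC
PAK6, chr15:40264819-40264854, plus strand: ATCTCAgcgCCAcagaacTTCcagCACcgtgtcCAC
CDC42BPA, chr1:227016125-227016160, minus strand: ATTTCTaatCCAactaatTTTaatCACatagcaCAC
CDC42BPB, chr14:102939655-102939690, minus strand: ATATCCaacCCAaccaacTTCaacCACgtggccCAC

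PAK2 had the same base as PAK1 at 29 of the 36 positions and PAK3 at 30, whereas PAK4 did so at 19 and PAK6 at 16. PAK6 was closer to PAK4, with 28 positions in common. CDC42BPA matched PAK1 at 22 positions, PAK4 at 19 and PAK6 at 19. CDC42BPB matched PAK1 at 17, PAK4 at 23 and PAK6 at 22. The stretches were located by the conserved residues marked in capitals, so part of every match was fixed in advance.

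By sequence, the transcripts of PAK1, PAK2, PAK3 and PAK4 could largely be told apart from those of other genes. Of the distinct 50-base windows in GENCODE v29 transcripts, the read length of this series, 0.756% of the PAK3 windows, 1.16% of the PAK4 windows and 2.77% of the PAK2 windows also occurred in another gene. The figure for PAK1 was 15.3%, nearly all of it (14.5%) shared with the annotated gene AP003680.1. The expected counts of PAK1 and PAK4 were whole numbers in all 6 libraries, and those of PAK2, PAK3 and PAK6 in 0 of 6. Fractional counts thus did not follow the window shares alone.

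PAK6 was the exception. It lies on the plus strand of chr15:40238759-40277487, and a readthrough gene, BUB1B-PAK6, which starts within the upstream mitotic checkpoint kinase gene BUB1B and continues through PAK6, spans chr15:40217428-40276396. All 2043 coding bases of BUB1B-PAK6 are also coding bases of PAK6, which has 2061. The CRIB sequence shown for PAK6 is therefore also that of BUB1B-PAK6. Of the readthrough windows, 92.1% also occurred in PAK6 and 6.29% in BUB1B, and 40.9% of the PAK6 windows occurred in the readthrough. These shares come from GENCODE v29 models, which give BUB1B-PAK6 2767 exonic bases. The lengths listed with its counts were 3808 and 3891 bases, so the shares need not hold for the models used in counting. The deposited table lists PAK6 and BUB1B-PAK6 as separate genes, and how the reads common to them were divided is an estimate of the counting program.

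PAK2 and PAK4 dominated PAK expression. In the order vector 1, vector 2, MRCKα KO, MRCKβ KO, DKO 1 and DKO 2, used throughout, PAK2, the widely expressed group I kinase, was at 43.14, 49.78, 47.55, 37.81, 43.83 and 45.77 FPKM. PAK4, a group II kinase that acts on LIM kinase and cell adhesion, was at 41.24, 42.06, 34.25, 38.93, 42.61 and 45.79 FPKM. The ranges of these 2 genes overlapped, and PAK4 was above PAK2 in MRCKβ KO and DKO 2 and below it in the other 4 libraries.

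PAK1, the group I kinase best known for its role in membrane ruffles and breast cancer, was at 12.31, 14.21, 12.21, 14.05, 12.03 and 11.40 FPKM, below PAK2 and PAK4 in every library. PAK6, first described as a partner of the androgen receptor, was at 1.31, 1.39, 0.24, 0.99, 0.23 and 0.52 FPKM. PAK3, a group I kinase of neurons, was at 0.14, 0.28, 0.18, 0.16, 0.21 and 0.18 FPKM, which corresponded to 13.16 to 26.50 expected counts. PAK6 exceeded PAK3 in all 6 libraries, but the 2 ranges met, since the lowest PAK6 values (0.23 and 0.24) were under the highest PAK3 value (0.28).

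**Figure D1:**
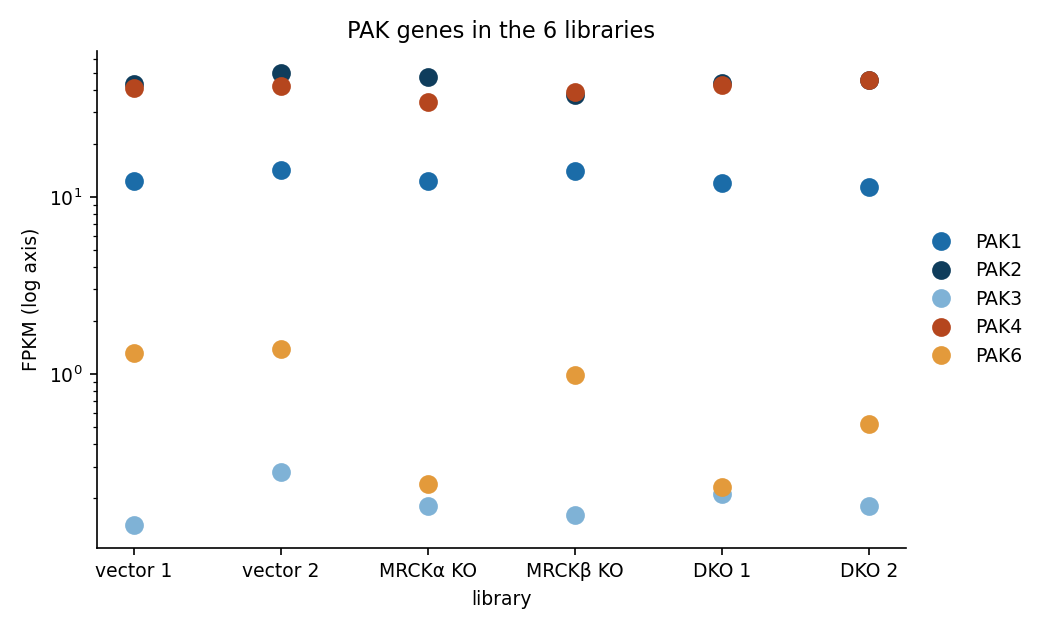
FPKM on a log axis for each PAK gene (colours) in each of the 6 libraries, 1 point per library. PAK2 and PAK4 lie together between 34.25 and 49.78, PAK1 lies near 12.7, PAK3 stays at or under 0.28, and PAK6 spreads from 0.23 to 1.39.

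Summed over the 5 genes, PAK expression was 98.14, 107.7, 94.43, 91.94, 98.91 and 103.7 FPKM. PAK2 made up 41.1 to 50.4% of this sum, PAK4 36.3 to 44.2%, PAK1 11 to 15.3%, PAK6 0.233 to 1.33% and PAK3 0.143 to 0.26%. Group I genes held 63.5% in MRCKα KO, compared with 55.3 to 59.7% in the other 5 libraries. In MRCKα KO the ratio of PAK4 to PAK2 was 0.72, while it was 0.845 to 1.03 in the other 5.

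The abundant genes changed little over all libraries. The highest FPKM was 1.32 times the lowest for PAK2, 1.34 times for PAK4 and 1.25 times for PAK1, whereas it was 2.0 times for PAK3 and 6.04 times for PAK6. The coefficient of variation was 9.27%, 9.57% and 9.07% for PAK2, PAK4 and PAK1, 25.6% for PAK3 and 66.8% for PAK6.

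The MRCKα KO library was compared with the vector controls to ask which PAK genes differed after loss of MRCKα alone. PAK6 had 39.62 and 51.51 expected counts in the vector libraries and 6.5 in MRCKα KO. On the FPKM scale the MRCKα KO value was 0.178 times the vector mean of 1.35 ± 0.0566 (SD, n = 2), a log2 ratio of -2.49. The vector libraries differed from each other by 1.06-fold in PAK6 FPKM, less than the gap to MRCKα KO. They were further apart per assigned read, with vector 2 above vector 1 by 0.42 on the log2 scale (exact 95% counting interval -0.20 to 1.05). MRCKα KO against vector is the contrast on which PAK6 was selected.

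Few reads lay behind this value. Rounded to whole reads, 6 reads in MRCKα KO against 91 in both vector libraries gave a log2 ratio of -2.90 per assigned read, with an exact 95% interval of -4.39 to -1.73 that covers counting error only. The FPKM ratio is on another scale, since the length assigned to PAK6 also moved, from 2836.37 and 3561.45 bases in the vector libraries to 2558 in MRCKα KO. These are bulk libraries, in which fewer cells with a transcript and less RNA per cell cannot be told apart.

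Over all genes, 2-fold differences were uncommon. The rule took genes above 0 in both groups whose replicates lay within 2-fold of each other, without a minimum count. In MRCKα KO, 569 of 12864 genes (4.42%) were past 2-fold in either direction, and 319 (2.48%) were lower. PAK6 was 1 of the 5 PAK genes past 2-fold, and since it was chosen on this contrast the count is given beside that background without being read against it. PAK1 (-0.12), PAK2 (0.03), PAK3 (-0.22) and PAK4 (-0.28) were within 2-fold on the log2 FPKM scale.

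PAK4 was the abundant gene with the largest difference in MRCKα KO. Its 1006 expected counts were below the 1244 and 1230 of the vector libraries, a log2 ratio per assigned read of -0.28 with an exact 95% counting interval of -0.39 to -0.17. PAK4 in the vector libraries differed by 1.02-fold in FPKM, and MRCKβ KO and the DKO libraries lay between 38.93 and 45.79 FPKM. PAK1 and PAK4 fell below both vector libraries in MRCKα KO, while PAK2 and PAK3 lay between them. PAK6 was also below, but it was chosen for its low level there and is not counted. Of all 13006 genes, 59.5% were outside the vector range in this library, in one or the other direction.

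The sum of PAK6 and BUB1B-PAK6 was examined because their reads overlap. The readthrough gene had 9.67, 28.88, 12.72, 11.20, 31.02 and 25.45 expected counts. Added to PAK6, the totals were 49.29, 80.39, 19.22, 41.13, 38.69 and 41.73. MRCKα KO was the lowest library on this sum, but the sum includes the PAK6 reads on which PAK6 was chosen, so it is no independent check. BUB1B-PAK6 alone was not lowest there, with 12.72 against 9.67 in vector 1 and 11.20 in MRCKβ KO. Its log2 read ratio was -0.57 (exact 95% counting interval -1.60 to 0.37), at 0.42 against vector 1 alone and -1.16 against vector 2 alone. On the sum, both DKO libraries, which were among the 3 lowest for PAK6 alone, came close to MRCKβ KO.

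Taken against both vector libraries, the sum in MRCKα KO was 19 reads against 130, a log2 ratio of -1.76 (exact 95% counting interval -2.53 to -1.06). Against vector 1 alone it was -1.33 (-2.17 to -0.54), and against vector 2 alone it was -2.08. The vector libraries differed in the sum by 0.75 on the log2 scale (0.22 to 1.29), more through BUB1B-PAK6 than through PAK6. In FPKM, BUB1B-PAK6 in vector 2 was 3.17 times its value in vector 1. BUB1B itself was at 30.21, 27.71, 31.05, 24.32, 28.84 and 30.52 FPKM, with MRCKα KO the highest library.

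**Figure D2:**
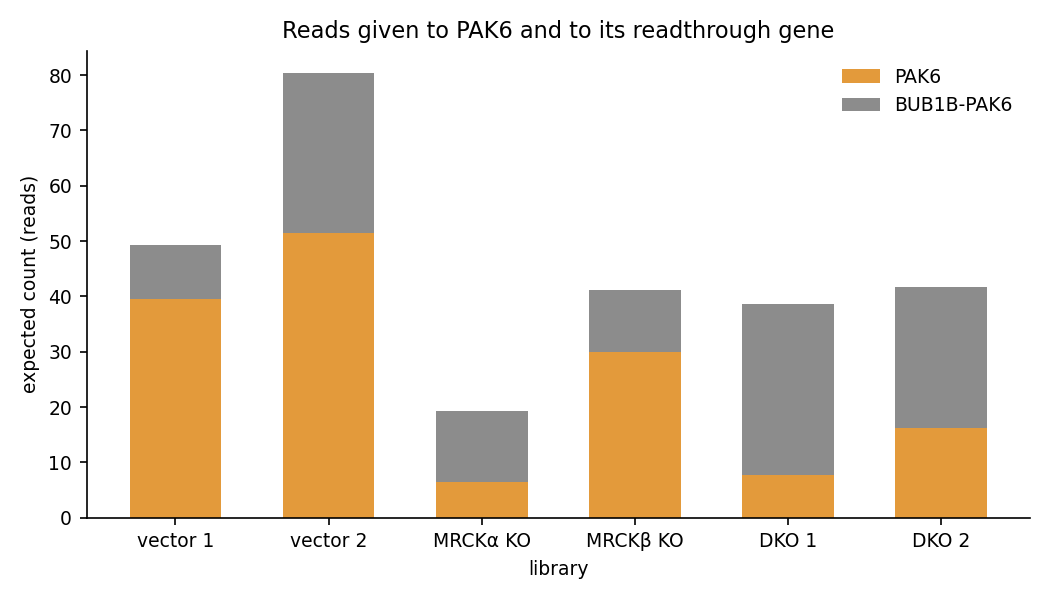
Expected counts (reads) assigned to PAK6 and, stacked on top, to the readthrough gene BUB1B-PAK6 in each library. The stack is lowest in MRCKα KO at 19.22, and in the DKO libraries the readthrough takes the larger part of stacks of 38.69 and 41.73.

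The share of the summed reads that was assigned to PAK6 was 80.4%, 64.1%, 33.8%, 72.8%, 19.8% and 39%. The 3 libraries labelled as lacking MRCKα had 19.8 to 39% and the other 3 had 64.1 to 80.4%, on 19.22 to 80.39 summed reads. PAK6 was chosen for its low level in MRCKα KO, so the share in that library is not independent of the choice. The DKO shares are set against the same vector libraries. How many other genes separate the libraries in this way was not examined. Whether these shares reflect transcript choice or the division of common reads was not tested.

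In MRCKβ KO, PAK6 was at 29.93 expected counts, a log2 FPKM ratio of -0.45, which stayed within 2-fold as did the other 4 PAK genes. The background was 455 of 12903 genes (3.53%) past 2-fold. Per assigned read the PAK6 ratio was -0.62, with an exact 95% counting interval of -1.27 to -0.01, and the sum with the readthrough was -0.68 (-1.23 to -0.17). Without vector 2, PAK6 gave -0.41 (-1.15 to 0.31) and the sum -0.25 (-0.89 to 0.37), so both differences from vector rested on that library.

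PAK2 was lower in MRCKβ KO than in any other library, with a log2 ratio per assigned read of -0.29 (exact 95% counting interval -0.36 to -0.22). The 2 vector libraries, however, differed in PAK2 by 0.21 on the same scale (0.14 to 0.29), so the gap to the vector controls was of the size of the gap between them. PAK1 was at 0.08 and PAK4 at -0.10 on the log2 FPKM scale. PAK2, PAK4 and PAK6, 3 of 5, were below both vector libraries, as 59.3% of all 13033 genes were outside the vector range in one or the other direction.

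DKO was the only knockout with replicates and was tested against the vector controls across all 13123 genes that passed a filter on low counts, with edgeR's quasi-likelihood test. All 5 PAK genes passed this filter. It called 0 genes at an adjusted p under 0.05 (0%), with 313 genes (2.39%) under 0.05 before adjustment, and DESeq2 called 4. The DKO comparison shares its vector libraries with the MRCKα KO comparison on which PAK6 was chosen.

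PAK6 had 7.67 and 16.28 expected counts in DKO, both below the 39.62 and 51.51 of the vector libraries. The mean was 0.375 ± 0.205 FPKM in DKO and 1.35 ± 0.0566 FPKM in vector (SD, n = 2 each). The groups did not overlap, which was also so for 29.3% of 13016 genes, in one or the other direction. The log2 fold change was -1.95 (SE 0.494, 95% interval -3.15 to -0.75). PAK6 was among the 313 genes under 0.05 before adjustment and did not pass after it (edgeR, Benjamini-Hochberg adjusted p = 1). With BUB1B-PAK6 added, the DKO mean was 1.07 ± 0.113 and the vector mean 1.83 ± 0.41 FPKM, and the log2 fold change was -0.69 (SE 0.375), above the 0.05 threshold even before adjustment.

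The readthrough gene on its own was at 0.49 on the log2 scale (95% interval -0.95 to 1.94, edgeR adjusted p = 1). BUB1B was at 0.01 (adjusted p = 1). The BUB1B-PAK6 value turned with the vector library used, at -0.09 without vector 1 and 1.48 without vector 2, and its DKO and vector ranges overlapped in FPKM. The part of the readthrough in the PAK6 result was not tested beyond the sum.

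The other PAK genes were close to the vector level in DKO. The log2 fold change was -0.17 for PAK1 (95% interval -0.52 to 0.18, edgeR adjusted p = 1), with means of 11.71 ± 0.445 FPKM in DKO and 13.26 ± 1.34 in vector (SD, n = 2 each). It was -0.05 for PAK2 (-0.35 to 0.25) and 0.06 for PAK4 (-0.22 to 0.34), each with an edgeR adjusted p = 1. For these 3 abundant genes the intervals did not reach a 2-fold change in either direction, whereas for PAK3 (-0.14, interval -1.43 to 1.15, edgeR adjusted p = 1) a 2-fold change was not excluded at 13.16 to 26.50 expected counts.

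**Figure D3:**
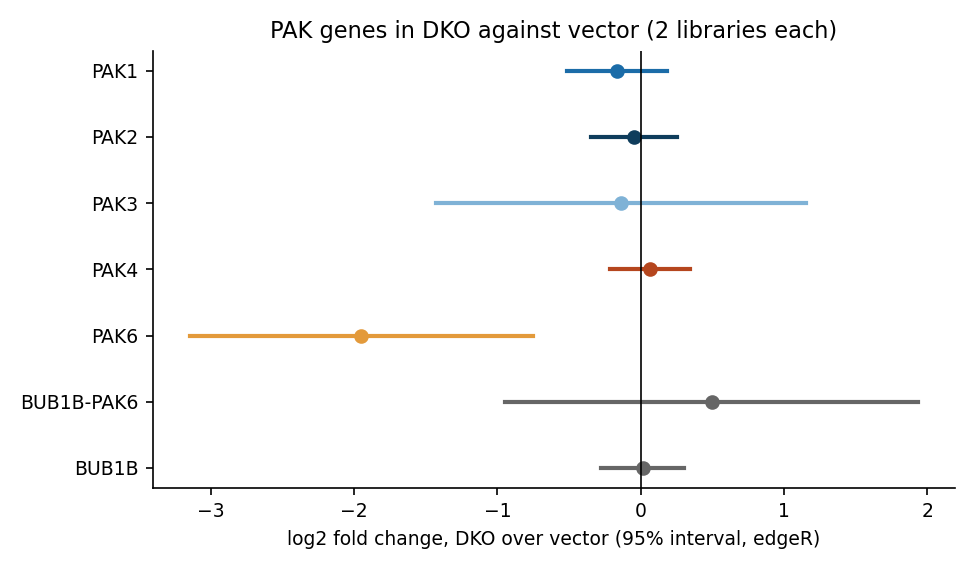
Log2 fold change of DKO over vector (points) with 95% intervals from edgeR (lines) for the PAK genes, BUB1B-PAK6 and BUB1B, 2 libraries per group. The intervals of PAK1, PAK2 and PAK4 are narrow around 0, and that of PAK6 runs from -3.15 to -0.75.

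By position, PAK1 and PAK6 were below both vector libraries in both DKO libraries. PAK4 was above them. Such a separation was seen for 29.3% of 13016 genes. Of the 12254 genes with replicates within 2-fold of each other, 218 (1.78%) were past 2-fold, and 0 of these were PAK genes. PAK6, at 0.278 times the vector mean, was not among the 12254, because the DKO libraries differed in it by 2.26-fold.

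Genes that act with PAKs were examined in 4 lists of GTPases, adaptors and activators, negative regulators, and substrates. Of 49 genes in the table, 47 passed the filter, and 0 had an edgeR p under 0.05 in DKO, adjusted or not. In DKO, 23 of the 47 were higher and 24 lower, with a median log2 fold change of -0.015 compared with -0.002 over all 13123 genes.

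Among the 7 tested GTPases, which switch PAKs on, the DKO median was -0.062, from RAC3 at -0.15 to RHOJ at 0.12. The 9 adaptors and activators had a median of 0.048. ARHGEF7, which encodes the exchange factor β-PIX that binds PAK directly, was at 0.17, and ARHGEF6, which encodes its relative α-PIX, was at -0.56 (edgeR adjusted p = 1). The 7 negative regulators had a median of 0.047, from the PAK phosphatase PPM1F at -0.09 to its relative PPM1E at 0.30.

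The 24 substrates had a DKO median of -0.064. LIMK1, which phosphorylates the actin-severing protein cofilin, was at 23.53 and 22.66 FPKM in vector and 20.54 and 17.67 in DKO. Its log2 fold change was -0.32 (edgeR adjusted p = 1). The groups did not overlap for LIMK1, which was also so for 29.3% of 13016 genes, in one or the other direction. The transcription factor gene SNAI1 was highest of the list at 0.28. Neither difference passed the test.

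In MRCKα KO, 1 of the 49 list genes, ARHGEF6, was past 2-fold, beside 4.42% of all genes, at 1.18, 1.25, 0.52, 1.20, 0.88 and 0.77 FPKM. MRCKα KO was the lowest library and the DKO libraries lay between it and the vector controls. NCK2, an adaptor that brings PAK to activated receptors, was at -0.51 on the log2 FPKM scale with 8.18 FPKM in MRCKα KO and 10.5 to 13.62 in the other 5 libraries. In MRCKβ KO, beside 3.53% of all genes, the 2 list genes past 2-fold were RHOV (log2 FPKM ratio 1.42), an atypical GTPase, and INKA1 (1.12), an inhibitor of group II PAKs listed as FAM212A, with means over the 6 libraries of only 6.0 and 7.0 expected counts.

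**Figure D4:**
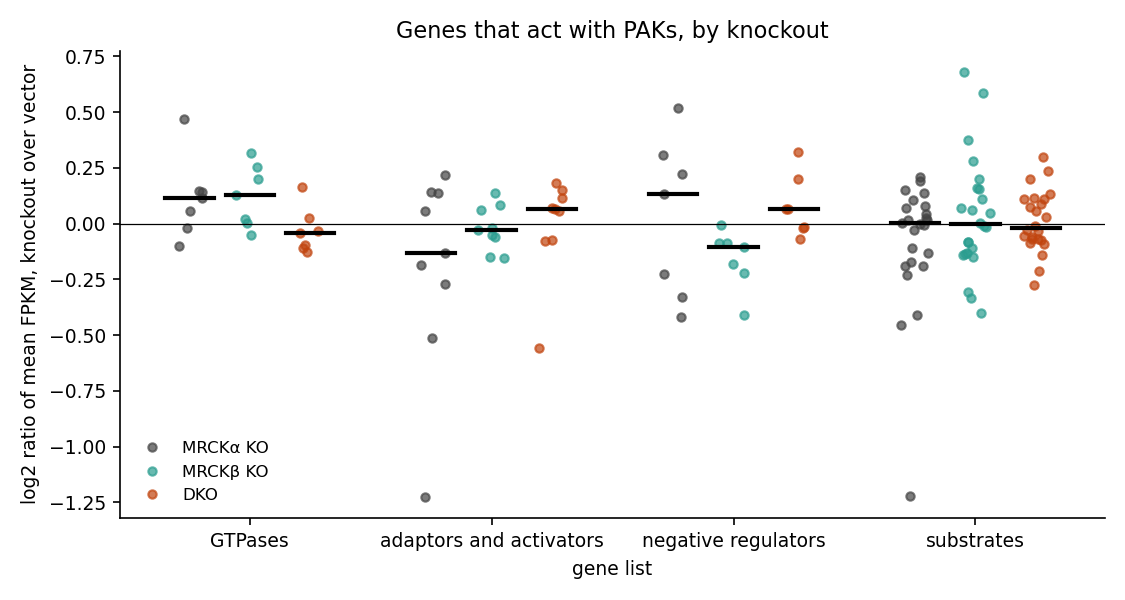
Log2 ratio of mean FPKM, knockout over vector, for the 47 genes of 4 PAK-related lists with a mean of at least 10 expected counts, 1 point per gene, with the list median as a bar. The points centre near 0 in all 3 knockouts, with ARHGEF6 at -1.22 in MRCKα KO as the lowest adaptor.

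The genes whose pattern over the 6 libraries was most like that of a PAK gene were sought among 11712 genes by the correlation of log2(FPKM + 0.1). For PAK4 they were ARF1 (Pearson r = 0.984, Spearman rho = 0.943), PRR12 (r = 0.981) and NCK2 (r = 0.98, rho = 0.829). PAK4 and NCK2 were both lowest in MRCKα KO and highest in DKO 2. For PAK6 they were LSM12 (r = 0.989, rho = 0.943), TRAPPC11 (r = 0.982) and ADGRL2 (r = 0.979).

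For PAK2 they were EOGT, IMMP1L and FLG, each at r = 0.993, and for PAK1 LOC102723360 (r = 0.982, rho = 0.714), PLCB3 (r = 0.969) and TOP1MT (r = 0.96). PAK3 was too low for this search. With 6 libraries and this many genes, correlations of this size describe the libraries alone, and all genes of a library share its depth and preparation.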

How the data were processed

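RNA of 6 MDA-MB-231 libraries was sequenced by the authors on a BGISEQ-500 as single-end 50-base reads. The submitters' processing notes name HISAT, Bowtie2 and RSEM with GRCh38.p11, without versions. The deposited table holds, per gene and library, an FPKM value (normalized by the authors to length and depth). Expected counts and lengths came from the separate deposited data of each library. The members and gene lists were chosen with earlier results of these data known. Named genes were the PAK genes, their overlapping genes, the targeted genes, the extremes of each list, and the 3 genes most alike to each PAK gene with a mean of at least 0.5 FPKM. Other genes are said to be chosen after their values were seen.

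Expected counts were rounded and fitted with edgeR 4.0.16 (R 4.3.3), vector against DKO, after edgeR's filter on low counts. DESeq2 1.42.0 and limma 3.58.1 (log2 of FPKM plus 0.1 or 1) served as alternatives, as did leaving out each library. The script was tested on simulated data. Single knockouts were compared by FPKM ratios without a test. The 2-fold rule took genes above 0 in both groups with replicates within 2-fold, and the vector-range counts took genes with a mean of at least 10 counts. Exact intervals cover counting error only. P-values measure the spread between the deposited libraries. Depth was 10349898 to 10657857 counts.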

Additional observations from a re-analysis of the deposited data

How the results depend on the processing

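The PAK6 difference in DKO stayed below 0 under every alternative that tested it, at -1.97 with DESeq2, -1.68 and -0.78 with limma at pseudocounts of 0.1 and 1, and -2.52 to -1.55 when 1 library was left out. With at least 10 counts required in every library it was not tested. Leave-one-out values ran from -0.15 to 0.0638 for PAK2 (above 0 without vector 2) and from -0.57 to 0.47 for PAK3. PAK genes past 2-fold numbered 0 rather than 1 in MRCKα KO with a pseudocount of 1, and in DKO 1 rather than 0 without the filter between replicates and with normalized CPM, and 0 to 1 when 1 library was left out (1 without either DKO library). With a replicate block the PAK6 value was -1.98 (edgeR adjusted p = 0.432), and 5 genes were called in place of 0. Same-numbered libraries deviated together over genes (r = 0.36). The labels do not tie the numbers and there are only 2 pairs, so whether same-numbered libraries were prepared together is not known. Calls over all genes were 4 with DESeq2, 5 with the replicate block and 0 in the other fits that left out no library. PAK6 and PAK3 rested on 6.5 to 51.51 expected counts, which limits their precision.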

Other observations

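Several genes of the PAK-related lists differed between the 2 vector libraries more than between vector and DKO. The genes named here were chosen after their values were seen. SSH1, a phosphatase that activates cofilin, was at 40.39 and 20.78 FPKM in vector 1 and vector 2 and at 33.42 and 27.38 in DKO. ITGB5, an integrin subunit, was at 34.6 and 18.15 FPKM in vector and at 25.87 and 19.71 in DKO. MYLK, which encodes myosin light chain kinase, was at 9.24 and 4.49 FPKM in vector and at 8.3 and 5.11 in DKO, and the GTPase gene RHOJ at 5.59 and 2.61 in vector and 4.55 and 4.63 in DKO. For these 4 genes both DKO values lay within the range of the vector libraries.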
